A study of Mus musculus with 6 samples.

Results

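The RNA of 10 genes of iron recovery from worn red cells was measured in splenic CD8+ T cell preparations of mice by RNA-seq. The genes are Hmox1, Blvra, Blvrb, Slc40a1, Slc11a1, Spic, Cd163, Fth1, Ftl1 and Tfrc, 10 of the 28773 genes listed. They were chosen by name as genes of the iron handling of red pulp macrophages, with the difference between the 2 groups of samples already known. Their group differences are therefore given as a description, with no test.

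Spleens were compared after local tumor destruction with and without a block of glycolysis. Female mice of 6 weeks were inoculated with tumor cells on day 0, and the primary tumor was destroyed completely by microwave ablation (MWA) on day 10. MWA+PBS mice then received phosphate-buffered saline, and MWA+2DG mice received 2-deoxy-D-glucose (2DG), a glucose analog that blocks glycolysis, at 500 mg/kg into the peritoneum, every 2 days until day 30. On day 35 each spleen was crushed and strained, its red cells were lysed and CD8+ T cells were isolated with a kit, giving 3 samples per group. MWA+PBS samples were numbered 1 to 3 and MWA+2DG samples 4 to 6. Both groups carried a tumor and received MWA, so no sample without ablation enters the comparison. The labels do not name the strain or the tumor line, and do not say whether each sample came from a separate mouse. The spread given here is the spread between these samples, which may be technical. The standard errors and p-values below rest on that spread and may not measure a difference between mice.

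Macrophages of the splenic red pulp engulf old red cells. Haem from the haemoglobin is opened by haem oxygenase into biliverdin, carbon monoxide and iron, and biliverdin is reduced to bilirubin. The iron is either stored in ferritin or leaves the cell through ferroportin. In most cell types iron also sets the translation or stability of several of these messages through iron-responsive elements (IREs), short hairpins in untranslated regions (UTRs) that bind iron regulatory proteins when iron is low.

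These hairpins are shown because they separate the genes into those with an element in the 5′ UTR, in the 3′ UTR or with no match. An element was searched on the transcript strand as an unpaired C, 5 bases, the loop CAGTGN and 5 bases that pair with the first 5, with G-U pairs allowed, in 1 coding transcript per gene of GENCODE M21. Each sequence is written in 29 bases from 5′ to 3′, from 6 bases before the unpaired C to 6 bases after the last base of the search pattern, with capitals on the unpaired C and the loop. Fth1, Ftl1 and Slc40a1 each held 1 match in the 5′ UTR, and Tfrc held 4 in the 3′ UTR.
Fth1, 5′ UTR: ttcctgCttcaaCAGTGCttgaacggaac
Ftl1, 5′ UTR: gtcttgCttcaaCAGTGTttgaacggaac
Slc40a1, 5′ UTR: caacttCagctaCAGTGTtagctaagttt
Tfrc, 3′ UTR, site 1: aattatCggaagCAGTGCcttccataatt
Tfrc, 3′ UTR, site 2: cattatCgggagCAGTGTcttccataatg
Tfrc, 3′ UTR, site 3: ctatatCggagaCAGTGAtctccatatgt
Tfrc, 3′ UTR, site 4: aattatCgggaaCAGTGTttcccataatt

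Counted from the 5′ end of the transcript, the element lay at bases 87 to 115 in Fth1-201, 78 to 106 in Ftl1-201 and 90 to 118 in Slc40a1-201. In Tfrc-201 the 4 elements lay at bases 3315 to 3343, 3694 to 3722, 3759 to 3787 and 3806 to 3834. The 2 ferritin messages had the same 5 bases on each side of the loop. Among 21710 genes searched in the same way, 21 (0.0967%) held a match in the 5′ UTR and 110 (0.507%) in the 3′ UTR, and Tfrc alone held 4 or more in the 3′ UTR. Of the 3402 genes whose 3′ UTR was at least as long as that of Tfrc, 49 (1.44%) held a match. No match was found in the chosen transcripts of Hmox1, Blvra, Blvrb, Slc11a1, Spic or Cd163, which says only that these letters are absent there.

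**Figure D1:**
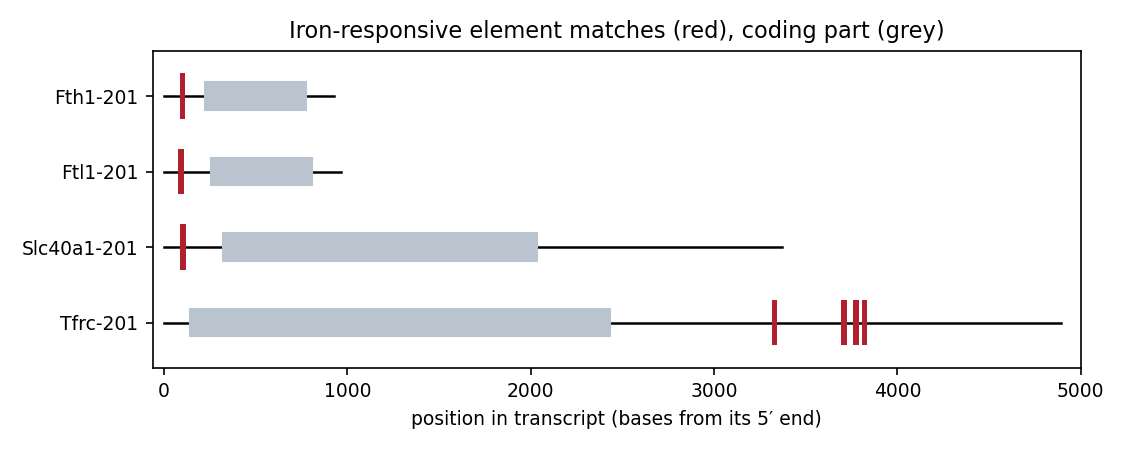
Matches to the iron-responsive element along 1 transcript per gene, drawn to scale, with position in bases from the 5′ end on the x axis. Grey boxes are the coding part, lines the untranslated regions and red bars the matches: 1 before the coding part of Fth1, Ftl1 and Slc40a1, and 4 after that of Tfrc.

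The deposited values were FPKM, read fragments scaled by transcript length and library size, which can be compared between genes because they are per length. The FPKM of all genes summed to between 291803 and 313257 in a sample. Read depth could not be recovered from the low values and is unknown. Samples correlated more closely within a group (r of log2(FPKM + 1) across genes from 0.984 to 0.989) than between groups (from 0.934 to 0.943), and none stood apart from its group. A fold change is the MWA+PBS mean over the MWA+2DG mean in FPKM, and a log2 fold change is the difference in log2(FPKM + 1), MWA+2DG minus MWA+PBS, with its standard error (SE) from limma, a linear model fitted to 12444 genes with a mean of at least 1 FPKM. The added 1 makes the log2 value smaller than the fold of a low gene. A gene was called where its adjusted p, corrected over all 12444 genes, was under 0.05. The gene lists below were also chosen with earlier results of these data known. Their calls and p-values are therefore given as a description as well.

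All 10 genes passed the minimum level, and all 10 were lower in every MWA+2DG sample than in any MWA+PBS sample. Over all tested genes, 21.9% had groups apart in this direction. The same 10 passed the adjusted p threshold as lower, against 17.1% of all tested genes, but nothing is read from these counts, since this contrast chose the genes. The log2 fold changes had a median of -1.68, and the median of all tested genes was 0.05. They ranged from -2.99 for Hmox1 to -0.27 for Tfrc, with 7 below -1 and 4 below -2. The summed FPKM of the 10 genes was 1032 to 1125 in MWA+PBS against 344 to 358 in MWA+2DG. In this bulk RNA, fewer cells of a type in the spleen, fewer carried through isolation and less RNA per cell cannot be told apart.

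**Figure D2:**
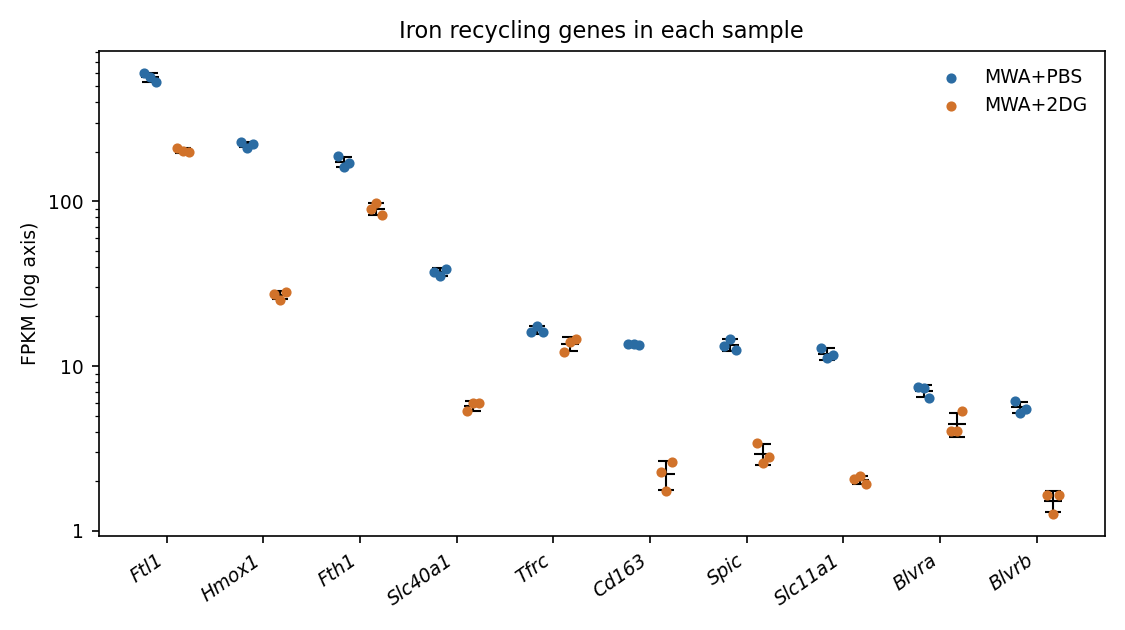
FPKM of the 10 genes in each of the 6 samples, on a log axis, with the genes ordered by their MWA+PBS mean. Points are samples (3 MWA+PBS, 3 MWA+2DG), dashes and bars the mean ± SD; the groups stand apart for every gene, most widely for Hmox1 and least for Tfrc.

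Haem breakdown held the largest decrease. Hmox1, the inducible haem oxygenase, measured 229, 211 and 223 FPKM in MWA+PBS against 27.5, 25.2 and 28.1 FPKM in MWA+2DG. The mean was 221.2 ± 9.18 FPKM (SD, n = 3) against 26.9 ± 1.54 FPKM (SD, n = 3), 8.22-fold lower after 2DG, with a log2 fold change of -2.99 ± 0.06 (SE). Only 5 of the 12444 tested genes had a more negative log2 fold change. Within a sample, Hmox1 was between the 110th and the 124th most abundant of all listed genes in MWA+PBS against between the 1493rd and the 1664th in MWA+2DG. Its constitutive counterpart Hmox2, which is not among the 10 genes, was 18.3 ± 0.551 FPKM in MWA+PBS against 17.3 ± 0.835 FPKM in MWA+2DG and was not called (log2 fold change -0.07 ± 0.06, adjusted p = 0.35 by limma). With FPKM scaled to the T lineage genes of each sample, Hmox2 was called lower (log2 fold change -0.49, adjusted p = 0.000145 by limma) and Hmox1 was at -3.42. The ratio of Hmox1 to Hmox2, which no scaling of whole samples changes, went from 12.1 ± 0.792 to 1.55 ± 0.0243 (SD, n = 3 each).

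The 2 biliverdin reductases differed from each other. Blvrb, which reduces biliverdin IXβ and flavins, measured 6.13, 5.22 and 5.51 FPKM in MWA+PBS against 1.64, 1.26 and 1.64 FPKM in MWA+2DG. This is 3.71-fold lower, with a log2 fold change of -1.40 ± 0.10. Blvra, which makes bilirubin from the biliverdin IXα that haem oxygenase releases, measured 7.48, 7.31 and 6.37 FPKM against 4.05, 4.02 and 5.33 FPKM. It was 1.58-fold lower, and its highest MWA+2DG sample came closer to the lowest MWA+PBS sample than for Blvrb. The ratio of Blvra to Blvrb was 1.26 ± 0.127 in MWA+PBS against 2.97 ± 0.434 in MWA+2DG, with no overlap between the groups.

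Both transporters among the 10 genes were low in every MWA+2DG sample. Slc40a1, which encodes ferroportin, the iron exporter, measured 37.3, 35.3 and 39.1 FPKM in MWA+PBS against 5.31, 5.96 and 5.95 FPKM in MWA+2DG. The mean was 37.2 ± 1.88 FPKM against 5.74 ± 0.372 FPKM, 6.48-fold lower, with a log2 fold change of -2.50 ± 0.07. Its rank among all listed genes went from between 950 and 1104 to between 6564 and 7120. Slc11a1, the phagosomal metal transporter NRAMP1, measured 12.9, 11.1 and 11.6 FPKM against 2.05, 2.15 and 1.92 FPKM. It was 5.82-fold lower, with a log2 fold change of -2.08 ± 0.08. Its close relative Slc11a2 (DMT1), which carries ferrous iron in many cell types, was 9.07 ± 0.419 FPKM in MWA+PBS against 8.89 ± 0.0611 FPKM in MWA+2DG and was not called (log2 fold change -0.03, adjusted p = 0.751 by limma), but it was called lower after T lineage scaling (log2 fold change -0.42, adjusted p = 0.000989 by limma).

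Spic and Cd163 were also lower in every MWA+2DG sample. Spic encodes the transcription factor that red pulp macrophages need for their development, and it measured 13.3, 14.6 and 12.4 FPKM in MWA+PBS against 3.39, 2.56 and 2.80 FPKM in MWA+2DG. It was 4.61-fold lower, with a log2 fold change of -1.88 ± 0.10. Cd163, the scavenger receptor for haptoglobin bound to haemoglobin, measured 13.7, 13.6 and 13.3 FPKM against 2.27, 1.75 and 2.63 FPKM. It was 6.11-fold lower, with a log2 fold change of -2.19 ± 0.10. Both genes were detected in all 6 samples, although CD8+ T cells are not known for either. Spic shares a stretch with 6 unclassified transcripts that the annotation lists separately. Their summed mean was 2.13 FPKM in MWA+PBS against 4.66 FPKM in MWA+2DG, opposite to Spic and above it after 2DG. Nearly all of this sum came from 1 of them, Gm37266, named after its values were seen, with 1.84 FPKM in MWA+PBS against 4.45 FPKM in MWA+2DG. The other 5 had means of at most 0.113 FPKM. Summed with all 6 transcripts, a step added after seeing the data, Spic was 15.6 ± 1.02 FPKM in MWA+PBS against 7.58 ± 0.959 FPKM in MWA+2DG, 2.05-fold lower, so the size of its decrease is uncertain where reads could be split.

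Ferritin stores iron in a shell of heavy and light chains, and its 2 genes were the most abundant of the 10 after 2DG. Ftl1, the light chain, measured 601.8, 568 and 533 FPKM in MWA+PBS against 210.1, 202.1 and 199 FPKM in MWA+2DG. It was 2.79-fold lower, with a log2 fold change of -1.47 ± 0.06. Fth1, the heavy chain with the ferroxidase site, measured 187, 162 and 172 FPKM against 89.7, 97.3 and 82.8 FPKM. It was 1.93-fold lower, with a log2 fold change of -0.94 ± 0.08. The light chain was thus lower by more than the heavy chain, and the ratio of Ftl1 to Fth1 was 3.28 ± 0.208 in MWA+PBS against 2.27 ± 0.171 in MWA+2DG, without overlap. Together the 2 chains made up 0.233% to 0.256% of the FPKM total in MWA+PBS against 0.0964% to 0.101% in MWA+2DG. Ftl1 has 5 listed near copies of at least 95% identity over 200 bases or more, which summed to 17.8 FPKM in MWA+PBS against 5.71 FPKM in MWA+2DG. Its exact level is therefore uncertain, but the copies held far less than Ftl1 itself and were lower in the same direction.

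Tfrc, the transferrin receptor through which dividing cells take up iron, had the smallest difference. It measured 16.2, 17.6 and 16.0 FPKM in MWA+PBS against 12.1, 14.0 and 14.7 FPKM in MWA+2DG. The mean was 16.6 ± 0.855 FPKM against 13.6 ± 1.31 FPKM, 1.22-fold lower, with a log2 fold change of -0.27 ± 0.08. Proliferation genes, whose summed FPKM was 178 to 182 in MWA+PBS against 107 to 109 in MWA+2DG, were lower in the same samples, and their part in the Tfrc value was not tested. The ratio of Slc40a1 to Tfrc in FPKM was 2.25 ± 0.219 in MWA+PBS against 0.424 ± 0.0166 in MWA+2DG. Of the 4 genes with an element, the 3 with it in the 5′ UTR had log2 fold changes of -2.50, -1.47 and -0.94, and Tfrc with its 3′ UTR elements -0.27. The genes with no match were at -2.99 (Hmox1), -2.19 (Cd163), -2.08 (Slc11a1), -1.88 (Spic), -1.40 (Blvrb) and -0.56 (Blvra). A link between these values and the elements was not tested. An element in the 5′ UTR is known to act on translation, which RNA-seq does not measure.

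The order of the levels also differed between the groups. In MWA+PBS it ran Ftl1, Hmox1, Fth1, Slc40a1, Tfrc, Cd163, Spic, Slc11a1, Blvra and Blvrb, where the samples of Cd163 and Spic overlapped and those of Spic and Slc11a1 did. In MWA+2DG it ran Ftl1, Fth1, Hmox1, Tfrc, Slc40a1, Blvra, Spic, Cd163, Slc11a1 and Blvrb. Slc40a1 and Blvra overlapped there, as did Spic and Cd163, and Cd163 and Slc11a1. Hmox1 thus passed from above Fth1 to below it, and Slc40a1 from above Tfrc to below it, in every sample.

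Macrophage markers were lower in the same samples. All 20 tested markers were called lower and none higher, with a median log2 fold change of -2.55 and a range from -2.82 to -1.29. This list was chosen with earlier results of these data known, so its p-values are no independent test. Itgad, an integrin chain of red pulp macrophages, was 55.9 ± 3.44 FPKM in MWA+PBS against 7.03 ± 0.28 FPKM in MWA+2DG (log2 fold change -2.82, adjusted p = 2.08e-07 by limma). C1qb, a chain of complement C1q, had a log2 fold change of -2.78 (adjusted p = 1.19e-06 by limma) and Mrc1, the mannose receptor, -2.73 (adjusted p = 1.67e-07 by limma). The defining markers Adgre1 (F4/80), Vcam1 and Csf1r, the receptor for macrophage colony-stimulating factor, went from 31.4 to 4.60, from 75.7 to 11.4 and from 67.9 to 10.6 FPKM in the group means. The summed FPKM of the list was 991 to 1070 in MWA+PBS against 155 to 160 in MWA+2DG, with no marker at 0 in all samples. The part of these cells in the differences of the iron recycling genes was not tested.

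Set against these markers, the 10 genes differed from each other. Each gene's FPKM was divided, sample by sample, by the geometric mean FPKM of the 20 markers, which was 33.1 to 35.7 in MWA+PBS against 5.50 to 5.79 in MWA+2DG. This ratio, with no value added before the logarithm, was chosen after seeing the data. Division by markers that were lower raises the ratio of nearly any gene. Over 12406 tested genes above 0 in every sample the median log2 difference of the ratio was 2.66, and all 10 iron recycling genes lay below it. A higher ratio therefore says only that a gene was less reduced than the markers. Slc40a1 had a ratio of 1.09 ± 0.0609 in MWA+PBS against 1.02 ± 0.0515 in MWA+2DG, Cd163 0.397 ± 0.0139 and 0.393 ± 0.0723, and Slc11a1 0.347 ± 0.0134 and 0.363 ± 0.028 (SD, n = 3 each). The groups overlapped for these 3 genes in this ratio. For Cd163 and Slc11a1 no direction relative to the markers is given, because its sign depended on how the ratio was formed. With 1 added to the FPKM of gene and markers before the logarithm, the log2 difference was 0.16 for Cd163 and 0.26 for Slc11a1. With the FPKM scaled to the markers first and 1 added afterwards, it was -0.24 for Cd163 and -0.16 for Slc11a1. Slc40a1 was lower in both, at -0.16 and -0.33.

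In the ratio with nothing added, Hmox1 was the 1 gene lower with groups apart, with a value of 6.43, 6.39 and 6.63 in MWA+PBS against 4.99, 4.51 and 4.85 in MWA+2DG. No macrophage marker had a log2 fold change below its own. Spic had a ratio of 0.394 ± 0.0421 against 0.519 ± 0.0847, and its groups were apart only narrowly, with 0.443 the highest in MWA+PBS against 0.458 the lowest in MWA+2DG. Blvrb was less reduced than the markers, with a ratio of 0.164 ± 0.00701 against 0.269 ± 0.0382. The genes least reduced against the markers were Tfrc (0.487 ± 0.0403 to 2.41 ± 0.181), Blvra (0.207 ± 0.0162 to 0.792 ± 0.111), Fth1 (5.08 ± 0.173 to 16.0 ± 1.58) and Ftl1 (16.6 ± 0.717 to 36.2 ± 1.95). Ferritin, biliverdin reductase A and the transferrin receptor are made by most cell types, so that a ratio to macrophage markers does not place their RNA in macrophages.

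**Figure D3:**
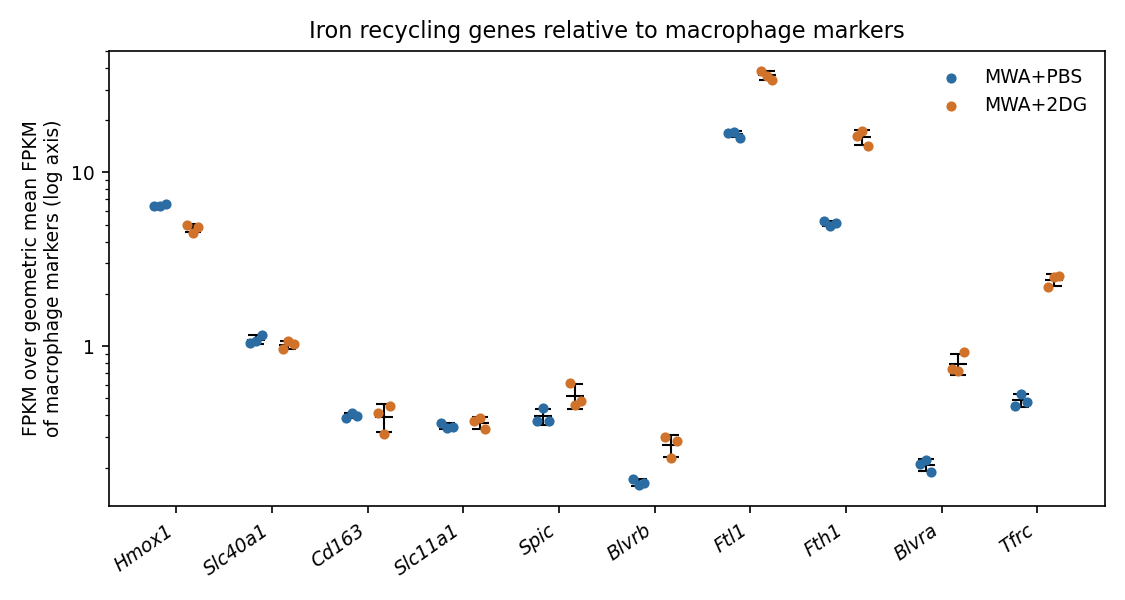
FPKM of each gene divided by the geometric mean FPKM of 20 macrophage markers in the same sample, on a log axis, ordered by the log2 difference. Points are samples and bars the mean ± SD (n = 3 per group); Hmox1 is lower in MWA+2DG, the groups overlap for Slc40a1, Cd163 and Slc11a1, and the other 6 genes are higher, each by less than the median of all tested genes (2.66 on the log2 scale).

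Iron genes outside the 10 moved in both directions. Of 65 genes in 4 lists, 63 were listed and 50 passed the minimum level, of which 23 were called lower, 8 were called higher and 19 were not called, with a median log2 fold change of -0.14. Among all tested genes 17.1% were called lower and 22.3% higher. The split depended on the scaling. With FPKM scaled to the T lineage genes of each sample, the median of all tested genes moved from 0.05 to -0.33, and of the 50 iron genes 42 were called lower and 1, Lcn2, higher, beside 61.1% and 4.91% of all tested genes. In iron and haem transport, 5 of 11 were lower and 3 higher. Trf, the plasma iron carrier transferrin, went from 84.2 ± 3.13 to 12.5 ± 0.58 FPKM (log2 fold change -2.66, adjusted p = 1.87e-07 by limma). Lrp1, the receptor for haem bound to haemopexin, had a log2 fold change of -2.76 (adjusted p = 1.73e-05 by limma) and Slc48a1, which passes haem from the phagosome to the cytosol, -1.46 (adjusted p = 6.51e-06 by limma). Lcn2, a neutrophil protein that binds bacterial iron carriers, rose from 2.28, 2.36 and 1.36 to 52.8, 47.0 and 50.4 FPKM (log2 fold change 4.11, adjusted p = 1.12e-06 by limma). The summed FPKM of neutrophil markers was 66.8 to 91.0 in MWA+PBS against 1554 to 1728 in MWA+2DG, and their part in the Lcn2 value was not tested. Haptoglobin (Hp) and the endolysosomal channel Mcoln1 rose by 0.36 (adjusted p = 0.0454 by limma) and 0.29 (adjusted p = 0.0131 by limma) on the log2 scale, but were at -0.06 and -0.08 after T lineage scaling.

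In iron sensing, 4 of 12 genes were lower, 2 higher and 6 not called. Hfe, the haemochromatosis protein, went from 6.49 ± 0.315 to 0.953 ± 0.263 FPKM (log2 fold change -1.95, adjusted p = 1.48e-05 by limma). The iron chaperone Pcbp1 and the ferritin autophagy receptor Ncoa4 had log2 fold changes of -0.49 (adjusted p = 0.00115 by limma) and -0.48 (adjusted p = 0.00129 by limma). Ireb2, iron regulatory protein 2, which binds the elements shown above, was higher by 0.37 (adjusted p = 0.00556 by limma), as was Fbxl5, which marks it for breakdown when iron is plentiful, by 0.28 (adjusted p = 0.0135 by limma), but both turned after T lineage scaling, to -0.04 and -0.11. The other binding protein, Aco1, was lower, with a log2 fold change of -0.46 (adjusted p = 0.000821 by limma). Aco1 falls outside the rule for named genes and was chosen after its value was seen, as were Hmox2, Slc11a2, Bach1 and Nfe2l2. Their adjusted p-values do not allow for that choice.

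In haem synthesis and mitochondrial iron, 6 of 17 genes were lower and 3 higher. Alad, which joins aminolevulinic acid into porphobilinogen, was lower by 0.98 on the log2 scale (12.7 ± 0.648 to 5.99 ± 0.872 FPKM, adjusted p = 0.000216 by limma). Abcb10, a mitochondrial transporter, was lower by less, with a log2 fold change of -0.43 (adjusted p = 0.0149 by limma). Ppox, Uros and the mitochondrial iron importer Slc25a28 rose by 0.45, 0.41 and 0.35 (adjusted p = 0.00513, 0.0158 and 0.003 by limma), and were at 0.06, 0.07 and -0.05 after T lineage scaling.

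NRF2 and BACH1 are the factors that respectively switch on and hold back Hmox1 and the ferritin genes. Of 10 tested targets other than the 10 genes, 8 were called lower and none higher, beside 17.1% and 22.3% of all tested genes. The median log2 fold change of these targets was -0.35. Gsr, glutathione reductase, had a log2 fold change of -0.52 (adjusted p = 0.00477 by limma), Txn1, thioredoxin, -0.48 (adjusted p = 0.0387 by limma) and Osgin1 -0.47 (adjusted p = 0.00703 by limma). After T lineage scaling they were at -0.91, -0.90 and -0.69, beside 61.1% of all tested genes called lower. These targets were measured over all cells of a preparation, and the part of NRF2 and BACH1 in the Hmox1 value was not tested. The messages of the factors themselves were not called, with log2 fold changes of 0.01 for Bach1 and -0.07 for Nfe2l2, which encodes NRF2 (adjusted p = 0.942 and 0.493 by limma). After T lineage scaling both were called lower, Bach1 at -0.38 (adjusted p = 0.00263 by limma) and Nfe2l2 at -0.49 (adjusted p = 0.000909 by limma).

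**Figure D4:**
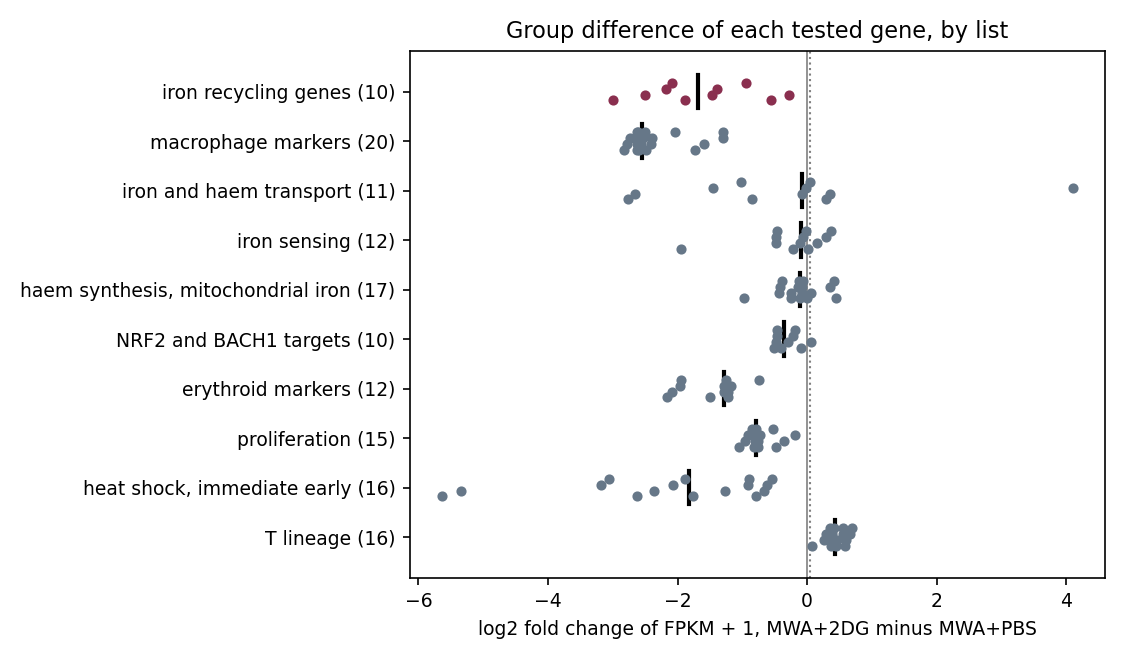
Log2 fold change (MWA+2DG minus MWA+PBS, log2(FPKM + 1)) of each tested gene, with one row per list and its number of tested genes in brackets. Points are genes, thick bars list medians and the dotted line the median of all tested genes; the 10 iron recycling genes spread from -2.99 to -0.27, and their median of -1.68 lies between that of the macrophage markers and those of the other iron lists.

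Other cell types and states moved with the groups as well, and their part in the values above was not tested. The T lineage list was higher after 2DG in FPKM as deposited, with 15 of 16 genes called (Cd8a 232 to 366 FPKM, Cd3e 97.3 to 127 FPKM), and is itself the base of the T lineage scaling. Erythroid markers were lower in 12 of 12 (Hbb-bs 96.9 to 24.4 FPKM), and their summed FPKM went from between 317 and 373 to between 75.1 and 93.7. Heat shock and immediate early genes, which respond to stress and handling, were lower in 15 of 16 (Hspa1a 131 to 2.25 FPKM), with a summed FPKM of 1876 to 1957 in MWA+PBS against 609 to 640 in MWA+2DG, as were 15 of 15 proliferation genes (Mki67 34.2 to 19.0 FPKM). Neutrophil markers were higher in 11 of 12 (S100a8 5.31 to 136 FPKM) and B cell markers in 8 of 8 (Cd79a 1.22 to 12.5 FPKM). Monocyte markers went both ways, 4 higher and 4 lower of 10. The higher were Ly6c2 (64.9 to 86.5 FPKM), Lyz2 (171 to 227 FPKM), which monocytes, macrophages and neutrophils share, Chil3 and Spn. The log2 fold changes of Chil3 and Spn were 2.65 and 0.29. The lower were Treml4, also on the macrophage list, F13a1, Nr4a1 and Ms4a6c, at -2.42, -2.29, -1.22 and -0.76. After T lineage scaling Ly6c2 and Lyz2 were at -0.03, Spn at -0.15 and Chil3 at 2.27. Ccr2 and Cx3cr1 were then called lower, at -0.47 and -0.23. Apart from Ly6c2 and Lyz2, these genes were named after their values were seen.

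The genes most like each of the 10 were sought among all tested genes by the root mean square difference of the 6 log2(FPKM + 1) values from each gene's mean. As a description of these 6 samples, Slc40a1 was closest to Adgre1, with a difference of 0.0543, followed by C6 and Kcnj10. Hmox1 was closest to Itgad, at 0.0931, then to the lysosomal protease gene Lgmn at 0.119 and the immediate early gene Fosb at 0.128. Cd163 was closest to Gatm, Cd14 and Ighv2-9, and Slc11a1 to Ctsb, the cathepsin B gene, Dnajb1 and Igkv1-122. Spic was closest to Cpa3, Gm15922 and Igkv3-2. Blvrb was closest to Ckb, Pirb and Ctsz, and Ftl1 to Galnt3, Ighv7-3 and Lyn. Fth1 was closest to Themis2, Alad and Ptms. Blvra was closest to Ncaph, Adam9 and Tacc3, of which Ncaph and Tacc3 act in cell division, and Tfrc to Sssca1, Arhgap18 and Rnf103. With 2 groups that differ, this measure mainly matches the size of the group difference.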

How the data were processed

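Poly(A), strand-marked libraries with molecular identifiers were made from 6 samples, 3 per group. The authors deposited FPKM per Ensembl gene for each sample. Their methods name fastp, HISAT2, StringTie and ballgown, and the submitters' processing notes name cutadapt 1.9, HISAT2 2.0.4, UMI-tools, StringTie 1.3.4d and build mm9. The sources used here do not give the annotation or say whether molecular identifiers entered the FPKM. No counts were used, so depth and counting error are unknown.

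Symbols were matched to 28689 of 28773 identifiers with GENCODE M21 (GRCm38), which was used for names and transcript sequences only, so genome positions are not given. limma 3.58.1 (R 4.3.3) was fitted to log2(FPKM + 1) of 12444 genes with a mean FPKM of at least 1, with a trended variance, two-sided, and Benjamini-Hochberg adjustment over all of them. The script was tested on simulated data. An exact permutation test of 3 against 3 samples cannot go below p = 0.1. Near copies were sought with BLAST 2.17.0. The 10 genes and all lists were chosen with earlier results of these data known. Named beside them were the defining markers of each cell type, up to 3 called genes with the largest decrease and up to 3 with the largest increase in each iron and macrophage list, and the 3 most like genes of each of the 10. Some genes that this rule names are not reported here. Tried alternatives were another pseudocount, filter, scaling and variance model, and leaving out each sample.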

Additional observations from a re-analysis of the deposited data

How the results depend on the processing

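The 10 iron recycling genes kept their direction under every planned pseudocount, filter and scaling and without each sample, except relative to the macrophage markers. That scaling shifts nearly all genes, with a median log2 difference over all tested genes of 2.03 in place of 0.05 with 1 added after scaling and 2.66 with nothing added, and all 10 genes lay below these medians. With 1 added to the scaled FPKM, it turned the log2 difference of Tfrc to 1.92, Blvra to 1.41, Fth1 to 1.38, Ftl1 to 0.86, Blvrb to 0.33 and Spic to 0.12, and left Hmox1 at -0.69, Slc40a1 at -0.33, Cd163 at -0.24 and Slc11a1 at -0.16. With 1 added before scaling instead, chosen after seeing the data, Cd163 and Slc11a1 had the opposite sign, at 0.16 and 0.26, and Tfrc was at 2.07, Blvra at 1.78, Fth1 at 1.40, Blvrb at 0.95, Ftl1 at 0.87 and Spic at 0.46. With nothing added, a setting chosen after seeing the data, it turned Tfrc to 2.31, Blvra to 1.93, Fth1 to 1.65, Ftl1 to 1.12, Blvrb to 0.70, Spic to 0.39 and Slc11a1 to 0.0605, and left Hmox1 at -0.44, Slc40a1 at -0.10 and Cd163 at -0.03. Summed with its near copies, mostly Gm37266 and also chosen after seeing the data, Spic was at -0.95 in place of -1.88. Blvrb fell below a minimum mean of 5 FPKM and has no value there. Scaling to the T lineage genes moved the other iron genes from 23 lower and 8 higher to 42 and 1, the higher calls of the other cell types and states from 38 to 23, and all tested genes from 2134 lower and 2773 higher to 7601 and 611. A minimum mean of 5 FPKM, which leaves 7313 genes to test, gave 1164 lower and 1787 higher. Leaving out 1 sample at a time gave 16 to 22 lower and 6 to 8 higher iron genes, 20 lower and 0 higher macrophage markers, 45 to 46 lower and 37 to 38 higher genes of other types and states, and 1631 to 2217 lower and 1989 to 2978 higher genes in all. The unknown depth leaves the counting error of low values unknown. No paired analysis was possible because the groups share no replicate number.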
